A study of Homo sapiens with 6 samples.

Results

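The genes examined here encode the subunits, activators and assembly factors of the proteasome. They were chosen by name: every gene whose symbol is PSM followed by a letter from A to G and a number. This gave 47 of the 40173 genes in the table, of which 46 had enough counts to be tested. PSMA8, a testis form of an alpha subunit, was not analysed here. The libraries come from HCT116, a human colon cancer cell line, stably transduced either with a control lentivirus (MOCK) or with a lentivirus bearing the coding region of CYGB (cytoglobin, a haem protein that binds oxygen) fused with FLAG. Each group has 3 RNA-seq libraries of total RNA, numbered 1 to 3 and called biological replicates by the submitters. Both groups were selected with puromycin, carry no other genotype difference in the labels and were compared in standard medium without a drug. The model is therefore 1 cell line with constitutive expression from a virus, and the labels do not say whether the libraries of a group come from separate transductions. P-values measure the spread between these libraries.

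The 26S proteasome degrades proteins tagged with ubiquitin. Its 20S core is a barrel of alpha rings, which gate the entrance, and beta rings, in which PSMB5, PSMB6 and PSMB7 hold the proteolytic sites. The 19S regulatory particle caps the core: its ATPases (PSMC genes) unfold the substrate, and its non-ATPase subunits (PSMD genes) bind ubiquitin, remove it or hold the particle together. After interferon, PSMB8, PSMB9 and PSMB10 replace the 3 constitutive catalytic subunits and give the immunoproteasome, which favours peptides for antigen presentation.

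Library totals ranged from 58138393 to 66035266 counts. Values below are CPM, counts scaled to a fixed library size after TMM scaling, in which edgeR divides counts by a library size corrected for composition, with the transcripts of each gene summed. Counts of CYGB itself were 10, 28 and 34 in MOCK and 34935, 27681 and 32333 in CYGB, so the labels hold for the transduced gene. Of 8 markers of colon epithelium, 7 were analysed, and their summed level was 2637 to 2917 CPM in MOCK and 2400 to 2978 CPM in CYGB. EPCAM, KRT8, KRT18, CDH1 and CDX2 made up nearly all of it, and VIL1 and CLDN4 were at 1.65 CPM or less. Fibroblast markers summed to 45.6 to 51.3 CPM in MOCK and 47.8 to 55.2 CPM in CYGB, nearly all from COL1A1, with DCN, COL1A2 and COL3A1 close to 0. Leukocyte markers summed to 19.6 to 21.7 CPM in MOCK and 10.7 to 25.7 CPM in CYGB, nearly all from CD68, with PTPRC, CD3E and CD79A close to 0. The 3 endothelial markers summed to at most 1.96 CPM in every library. In bulk libraries, fewer cells of a type and less RNA per cell cannot be told apart.

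The proteasome genes were abundant and close to equal in MOCK and CYGB-overexpressing cells. Their median level was 125 CPM, against 9.78 CPM over the 19987 genes tested. None of the 46 reached an adjusted p under 0.05 in the quasi-likelihood test of edgeR (Benjamini-Hochberg adjustment over all genes), where 0.055% of all genes tested did. The methods of the study set a threshold on the unadjusted p (at most 0.01) and on the ratio (2 or more, or 0.5 or less). Of the members, 1 passed it, PSMA5, which is 2.17% of the members against 0.565% of all genes in either direction and 0.285% lower in CYGB (0.28% higher). An unadjusted p under 0.05 was found for 4 members (8.7%, against 4.54% of all genes): PSMA5 and PSMC2 were lower in CYGB, and PSMC4 and PSMC5 were higher. The median log2 fold change, CYGB minus MOCK, was 0.019 over the members and -0.007 over all genes tested, and 26 members had a positive and 20 a negative value.

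Most differences were bounded narrowly. For 38 of the 46 members (82.6%) the whole 95% interval of the fold change lay within 1.5-fold in either direction, against 34.0% of all genes tested. Only 4 members (8.7%) had a log2 fold change beyond 0.25 in either direction, against 39.5% of all genes. The median within-group SD on the log2 scale was 0.116 for the members and 0.320 for all genes, beside the higher counts of the members.

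**Figure D1:**
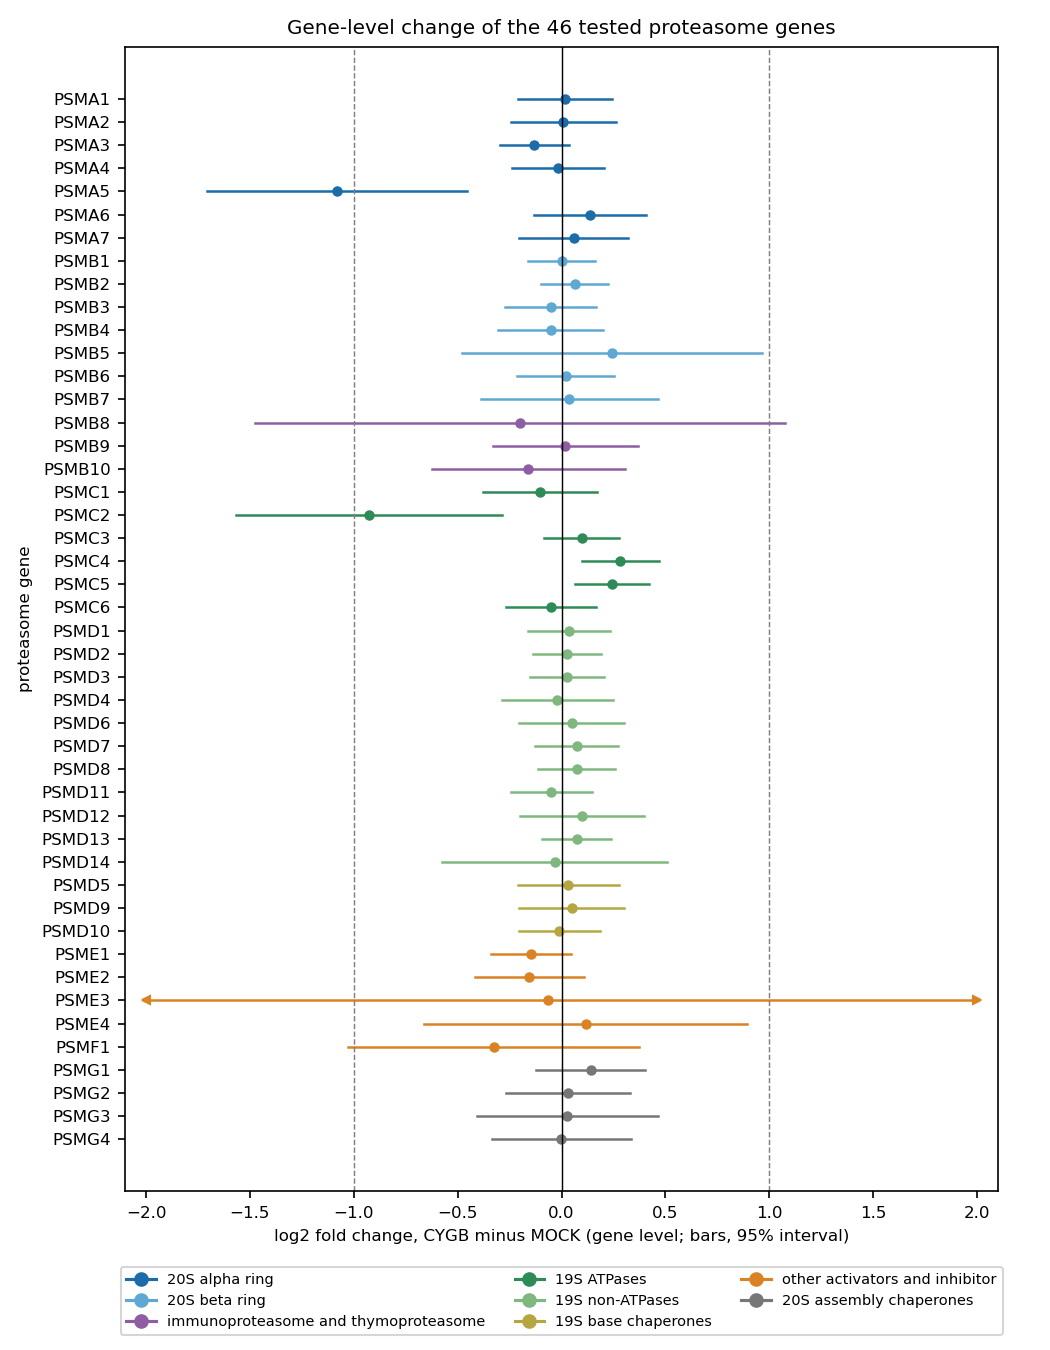
Log2 fold change of each tested proteasome gene, CYGB minus MOCK, with its 95% interval, coloured by class; dashed lines mark a ratio of 2 in either direction, and arrows mark an interval that runs beyond the axis. Most points lie near 0; PSMA5 and PSMC2 lie far to the left, and PSME3 has an interval wider than the axis.

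In the 20S core, 13 of 14 genes lay within 0.25 of no difference on the log2 scale, and PSMA5 did not. The median log2 fold change was 0.01 over the core, 0.007 over the 7 alpha subunits and 0.019 over the 7 beta subunits, with 8 core genes positive and 6 negative. The alpha subunit PSMA7 was the most abundant of its ring per kilobase of transcript, at 325 ± 16.1 CPM per kilobase in MOCK and 339 ± 45 in CYGB (SD, n = 3). The beta subunit PSMB1, a structural member of the ring, was the highest of all 47 genes, at 374 ± 3.78 and 375 ± 21.8 CPM per kilobase. Its gene-level CPM was 355, 362 and 360 in MOCK and 356, 342 and 380 in CYGB, a log2 fold change of -0.00 (standard error 0.07), and its 95% interval ran from -0.16 to 0.16.

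PSMA5, an alpha ring subunit, lies on chromosome 1 of GRCh38 from 109399031 to 109426427, on the minus strand. Its level was 39.9, 24.3 and 36.7 CPM in MOCK and 18.3, 17.5 and 11.8 CPM in CYGB. Every CYGB library was below every MOCK library, with a gap between 18.3 and 24.3 CPM. The log2 fold change was -1.08 (standard error 0.26, 95% interval -1.71 to -0.46), with an unadjusted p of 0.0053 and an adjusted p of 0.963 from edgeR's quasi-likelihood test. Over the alternatives run, the adjusted p ranged from 0.0583 (DESeq2) to 1.0, and the log2 fold change from -1.33 to -0.91. The threshold of the methods was no longer passed without MOCK 1, MOCK 3, CYGB 1, CYGB 2 or CYGB 3. The unadjusted edgeR p was then 0.0184, 0.0184, 0.0105, 0.0134 and 0.0144, respectively, with a log2 fold change of -0.94, -1.01, -1.20, -1.16 and -0.91. With a replicate block the threshold was not passed either, at an unadjusted p of 0.0156 in the same edgeR test and a log2 fold change of -1.08. Most of its counts belonged to 1 transcript, ENST00000271308, which held 80.7 to 95.2% of them. That transcript had 1768, 1087 and 1799 counts in MOCK and 760, 774 and 502 in CYGB, and 78.7% of its 150-base windows occur in no other transcript of the gene. Per kilobase PSMA5 was the lowest of the core, at 10.7 ± 1.92 CPM in MOCK and 6.38 ± 1.32 in CYGB, so its listed level was far below that of the other alpha subunits in both groups.

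Among the other alpha subunits, PSMA3 also had groups that did not overlap, over a narrow range. Its values were 116, 110 and 113 CPM in MOCK and 104, 105 and 101 CPM in CYGB. The log2 fold change was -0.13 (standard error 0.07) with an unadjusted p of 0.105 in the same edgeR fit, and the 95% interval ran from -0.30 to 0.04. Groups of libraries did not overlap for 6 members in all (13.0%, against 11.0% of all genes tested): PSMC4 and PSMC5 were higher in CYGB, as 5.72% of all genes were, and PSMA3, PSMA5, PSMC2 and PSME1 were lower, as 5.31% were. PSMA6, the alpha subunit with the highest log2 fold change of its ring (0.14, standard error 0.11), had 132, 109 and 133 CPM in MOCK and 125, 146 and 139 in CYGB, and the groups overlapped.

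**Figure D2:**
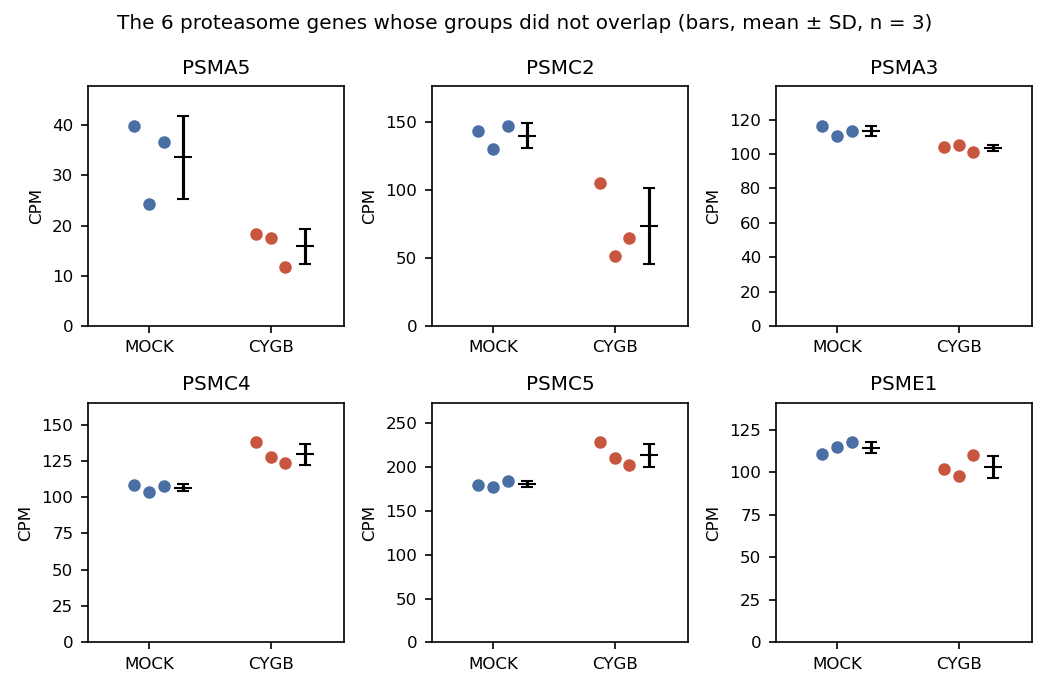
CPM in each library (points) with the mean and SD of 3 libraries beside them, for the 6 proteasome genes whose groups did not overlap; each axis starts at 0. PSMA5 and PSMC2 differ by about the height of the CYGB values, whereas PSMA3, PSMC4, PSMC5 and PSME1 differ by a small part of their level.

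The 3 constitutive catalytic subunits overlapped between the groups. PSMB5, which carries the chymotrypsin-like activity and is the main target of bortezomib, had 130, 72.4 and 106 CPM in MOCK and 152, 81.2 and 131 CPM in CYGB. Its lowest value in either group was in the library numbered 2, and the log2 fold change of 0.24 (standard error 0.30) was the highest of the beta ring. It ranged from 0.045 without MOCK 2 to 0.46 without CYGB 2. PSMB6, with the caspase-like activity, had 114, 103 and 103 CPM in MOCK and 119, 102 and 103 CPM in CYGB, a log2 fold change of 0.02 (standard error 0.10). PSMB7, with the trypsin-like activity, had 158, 174 and 137 CPM in MOCK and 181, 123 and 178 CPM in CYGB, a log2 fold change of 0.04 (standard error 0.18). PSMB4, a structural subunit, had the lowest log2 fold change of the ring, at -0.05 (standard error 0.10).

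The immunoproteasome subunits were expressed far below their constitutive counterparts in both groups, and PSMB8 was close to absent. PSMB9, the counterpart of PSMB6, had 13.7, 11.8 and 12.9 CPM in MOCK and 12.2, 12.2 and 14.5 CPM in CYGB (log2 fold change 0.02, standard error 0.14). PSMB10, the counterpart of PSMB7, had 12.4, 15.2 and 12.9 CPM in MOCK and 14.7, 9.86 and 11.8 CPM in CYGB (-0.16, standard error 0.19). PSMB8, the counterpart of PSMB5, had 0.19, 0.42 and 0.64 CPM in MOCK and 0.32, 0.28 and 0.49 CPM in CYGB (-0.20, standard error 0.52). All 3 overlapped between the groups. For PSMB8 a difference of the size of 2-fold in either direction was not excluded by the 95% interval, -1.47 to 1.07 on the log2 scale, which is a limit of its low counts. PSMB11, the catalytic subunit of the thymus, had 0 counts in every MOCK library and 4, 0 and 4 in CYGB, and was not tested.

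Compared per kilobase, PSMB6 was 7.93 ± 0.316-fold above PSMB9 in MOCK and 7.86 ± 1.18-fold above it in CYGB (SD, n = 3). PSMB7 was 7.88 ± 0.564-fold above PSMB10 in MOCK and 9.96 ± 1.31-fold above it in CYGB. PSMB5 was above PSMB8 by 161-fold to 694-fold in the MOCK libraries and by 240-fold to 328-fold in the CYGB libraries. The log2 ratio of the mean of the immunoproteasome subunits to the mean of the constitutive catalytic ones was -3.34 ± 0.12 in MOCK and -3.54 ± 0.04 in CYGB. The difference of -0.20 left the groups of libraries apart per kilobase, but they overlapped when CPM per gene was used (difference -0.16), as they did for PSMB10 against PSMB7. These ratios are given without a test. On the PSMB10 side, the share of counts in the retained-intron transcript ENST00000570985, which sets the length used, ranged from 47.3 to 83.8% between libraries.

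**Figure D3:**
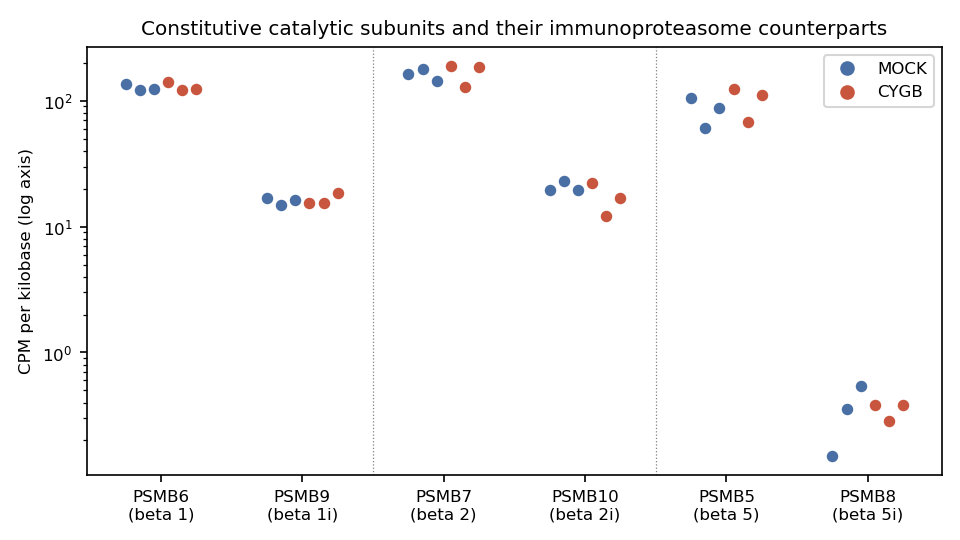
CPM per kilobase of transcript on a log axis for each constitutive catalytic subunit beside its immunoproteasome counterpart; points are the 6 libraries. In every library PSMB9 and PSMB10 lie below PSMB6 and PSMB7, PSMB8 lies below 1, and the points of MOCK and CYGB overlap for each gene.

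The 19S regulatory particle was likewise close to equal, with most of its spread in the ATPase ring. Over its 17 ATPase and non-ATPase genes the median log2 fold change was 0.04, with 11 positive and 6 negative. The 11 non-ATPase subunits ranged from -0.05 (PSMD11) to 0.10 (PSMD12), and each had a 95% interval within 1.5-fold of no difference. PSMD4, a ubiquitin receptor and the most abundant of these per kilobase, had 227, 216 and 224 CPM in MOCK and 243, 228 and 186 CPM in CYGB, a log2 fold change of -0.02 (standard error 0.11). PSMD14, the enzyme that removes ubiquitin chains from the substrate, had 165, 141 and 206 CPM in MOCK and 191, 121 and 189 CPM in CYGB, with the lowest value of each group in the library numbered 2.

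The 6 ATPases held 3 of the 4 members with an unadjusted p under 0.05, which 4.54% of all genes had, and these went in both directions, with PSMC4 and PSMC5 higher and PSMC2 lower in CYGB. PSMC4 had 108, 104 and 108 CPM in MOCK and 138, 128 and 123 CPM in CYGB, a log2 fold change of 0.28 (standard error 0.08, 95% interval 0.10 to 0.47). PSMC5 had 179, 177 and 184 CPM in MOCK and 228, 211 and 202 CPM in CYGB, a log2 fold change of 0.24 (standard error 0.07, 95% interval 0.07 to 0.42). For both, the MOCK libraries lay within a few CPM of one another and the CYGB libraries were all above them. The unadjusted p was 0.0094 for PSMC4 and 0.015 for PSMC5, the adjusted p was 0.963 for both in edgeR's quasi-likelihood test, and over the alternatives the adjusted p was at least 0.727 and 0.784. Without MOCK 2 the p of PSMC5 was 0.056 in the same test, and in edgeR's exact test the unadjusted p was 0.121 for PSMC4 and 0.164 for PSMC5. Without both libraries numbered 2 it was 0.0714 and 0.0896 in edgeR's quasi-likelihood test. PSMC5 overlaps FTSJ3, a gene on the opposite strand with 4730 to 4934 counts in MOCK and 5640 to 5720 counts in CYGB. Whether counting used strand is not given in the sources used here, so reads of the overlap cannot be told apart. PSMC3, the most abundant ATPase per kilobase (148 ± 19.7 CPM in MOCK and 154 ± 19.9 in CYGB), had a gene-level log2 fold change of 0.10 (standard error 0.07).

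PSMC2, another ATPase of the ring, was lower in CYGB by CPM. It lies on chromosome 7 of GRCh38 from 103344254 to 103369395, on the plus strand. It had 143, 130 and 147 CPM in MOCK and 105, 51.3 and 64.6 CPM in CYGB. On this scale every CYGB library was below every MOCK library. Per kilobase the level was 52.1 ± 3.52 CPM in MOCK and 38.9 ± 25.3 in CYGB (SD, n = 3), where the spread within CYGB exceeded the difference. In CYGB 1 the leading transcript was ENST00000640277, of 1357 bases, in place of ENST00000292644, of 2637 bases. The log2 fold change was -0.93 (standard error 0.26, 95% interval -1.57 to -0.29), with an unadjusted p of 0.0119 and an adjusted p of 0.963 from edgeR's quasi-likelihood test. Over the alternatives the adjusted p ranged from 0.175 to 1.0 and the log2 fold change from -1.27 to -0.73. Without CYGB 1 the log2 fold change was -1.27 and PSMC2 passed the threshold of the methods, with an unadjusted p of 0.00025 in the edgeR fit. DNAJC2, on the opposite strand over part of the gene, had 758, 968 and 1486 counts in MOCK and 1203, 1888 and 1342 in CYGB.

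Core and regulatory particle stood in a similar proportion in both groups. The mean level per subunit of the core was 166, 163 and 167 CPM per kilobase in MOCK and 179, 157 and 169 in CYGB. That of the regulatory particle was 103, 93.6 and 100 CPM per kilobase in MOCK and 111, 95.7 and 96.9 in CYGB. The log2 ratio of core to regulatory particle was 0.74 ± 0.06 in both groups (SD, n = 3), a difference of -0.01, which was smaller than the spread between libraries. The immunoproteasome subunits had a mean of 12.2, 12.7 and 12.1 CPM per kilobase in MOCK and 12.7, 9.34 and 11.9 in CYGB, and the groups overlapped. The library CYGB 1 held the highest value for 18 of the 46 members and CYGB 2 the lowest for 14, with median deviations from the gene mean of 0.07 and -0.07 on the log2 scale.

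**Figure D4:**
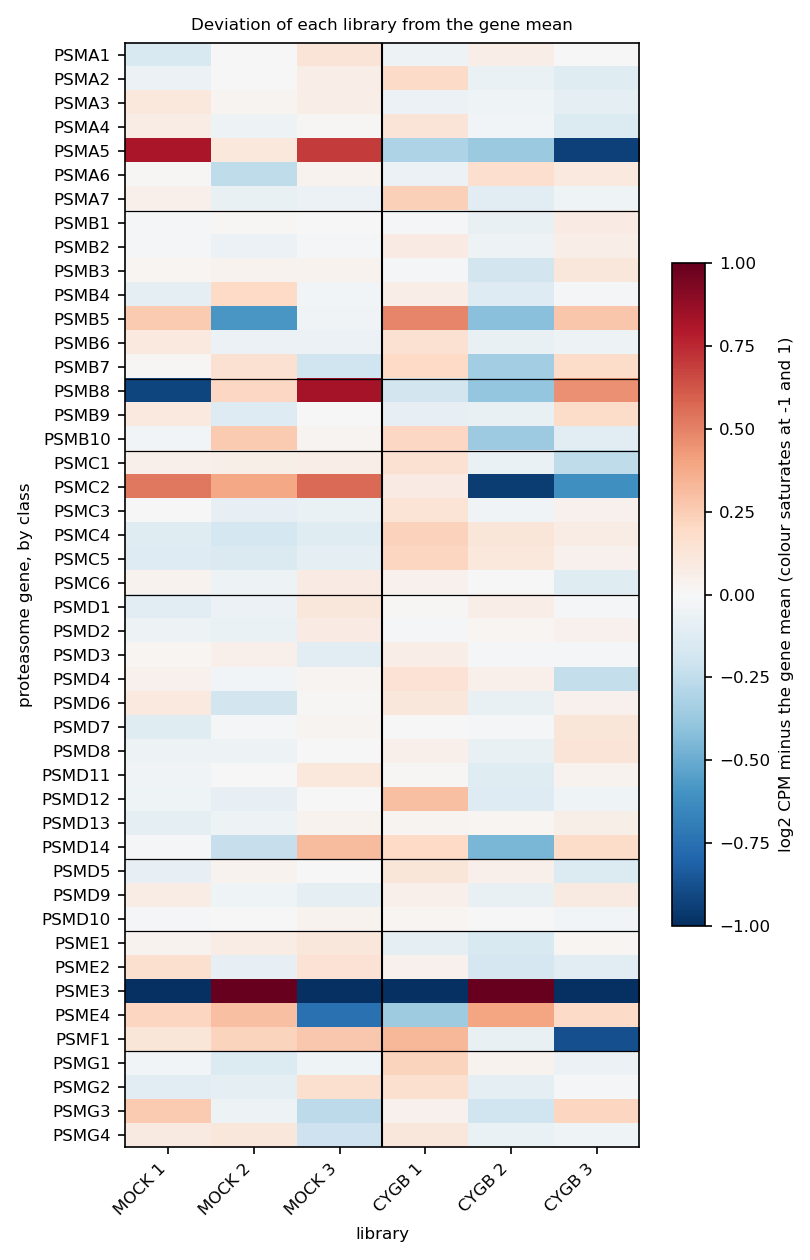
Colour shows log2 CPM minus the gene's mean over the 6 libraries, from -1 (blue) to 1 (red), for each tested proteasome gene in class order; the vertical line divides MOCK from CYGB. Most cells are pale. PSMA5 is red in MOCK, faintly so in MOCK 2, and blue in CYGB. PSMC2 is red in MOCK, blue in CYGB 2 and CYGB 3, and near its mean in CYGB 1. PSME3 is high in both libraries numbered 2.

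Of the genes that help build the particle or open its gate, none had an unadjusted p under 0.05. The 3 base chaperones, which hold the ATPases before they join the ring, ranged from -0.01 (PSMD10) to 0.05 (PSMD9) on the log2 scale. The 4 assembly chaperones of the core had a median of 0.03, from -0.002 (PSMG4) to 0.14 (PSMG1), and all 4 had intervals within 1.5-fold. PSMG2, the most abundant of these per kilobase, had 57.2, 58.1 and 69.4 CPM in MOCK and 69.2, 58.1 and 61.4 CPM in CYGB.

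The 4 activators and the inhibitor PSMF1 had a median log2 fold change of -0.15, with 1 positive and 4 negative, and of -0.06 without CYGB 3. PSME1, which with PSME2 forms the activator that interferon induces, had 111, 114 and 117 CPM in MOCK and 102, 97.6 and 110 CPM in CYGB. Its groups were apart by less than 1 CPM, and the log2 fold change was -0.15 (standard error 0.08) with an unadjusted p of 0.112 in the edgeR fit. PSME2 had 85.4, 72.4 and 84.6 CPM in MOCK and 78.9, 68.1 and 70.8 CPM in CYGB (-0.15, standard error 0.11). PSME4, the activator of 20S cores in the nucleus, had 149, 159 and 77.1 CPM in MOCK and 101, 169 and 148 CPM in CYGB, so its spread within a group covered the difference of 0.12. PSMF1 had 126, 135 and 139 CPM in MOCK and 146, 110 and 63.1 CPM in CYGB (-0.33, standard error 0.29), with CYGB 3 far below the others.

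PSME3, which forms a nuclear activator of the core, was named after its values were seen, because they did not follow the groups. It had 2.50, 139 and 2.70 CPM in MOCK and 4.22, 130 and 4.04 CPM in CYGB. Both libraries numbered 2 were high and the other 4 were low, so the standard error of its log2 fold change of -0.07 was 1.96. The transcript behind this was ENST00000293362, with 3, 7177 and 1 counts in MOCK and 2, 6529 and 4 in CYGB. BECN1, which overlaps PSME3 on the opposite strand, had 3067 to 3451 counts in MOCK and 3084 to 3709 in CYGB. No label gives the libraries numbered 2 a shared preparation, and what sets them apart was not tested.

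Single transcripts differed more between libraries than the sums of their genes did. The table lists 418 transcripts of the members, of which 285 were tested. Their median within-group SD was 0.574 on the log2 scale, against 0.116 for the gene sums. Over all features tested it was 0.688 for transcripts and 0.320 for genes, so transcripts spread more than genes there too, by a smaller margin. The threshold of the methods was passed by 6 of the 285 (2.11%, against 1.02% of all transcripts tested), in 5 genes. Of these, 4 were higher (0.54% of all transcripts were) and 2 lower (0.482%) in CYGB. None had an adjusted p under 0.05 in edgeR's quasi-likelihood test, which 0.015% of all transcripts reached. An unadjusted p under 0.05 was found for 13 (4.56%, against 3.78%). Groups did not overlap for 33 (11.6%, against 10.4%), 14 of them higher (5.19% of all) and 19 lower (5.25%). In DESeq2, 7 of the 397 transcripts with a count (1.76%) had an adjusted p under 0.05, against 0.644% of all transcripts, and 15 passed the threshold of the methods (3.78%, against 1.86%). Of these 7, PSMA6 had 2, and PSMC2, PSMF1, PSMD1, PSMD2 and PSMD5 had 1 each. ENST00000440838 of PSMD1 had 1087, 1338 and 38 counts in MOCK and 26, 3 and 33 in CYGB, so MOCK 3 lay close to the CYGB libraries. ENST00000476949 of PSMD5 had 12, 7 and 16 counts in MOCK and 0 in every CYGB library. How reads were divided among the transcripts of a gene is not given in the sources used here.

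PSMA6, PSMC2, PSMF1 and PSMD2 each held a transcript that passed this threshold and also had an adjusted p under 0.05 in DESeq2. For PSMA6, PSMC2 and PSMF1 the exon junctions that tell their transcripts apart are printed, read 5′ to 3′ on the plus strand of GRCh38. In PSMA6 (chromosome 14), ENST00000553809 joins exon 4, which ends at position 35310895, to an exon that begins at 35312863, and ENST00000261479 joins it to one that begins at 35312881. The capitals mark the 18 bases that ENST00000553809 gains, and its coding region is 756 bases long against 738.
PSMA6 ENST00000553809: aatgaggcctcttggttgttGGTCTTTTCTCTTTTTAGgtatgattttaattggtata
PSMA6 ENST00000261479: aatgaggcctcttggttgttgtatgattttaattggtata
ENST00000553809 had 0 counts in every MOCK library and 592, 3090 and 3128 counts in CYGB. Against a floor of 3 counts over the 3 MOCK libraries this was at least 2236-fold higher, for counting error only. The adjusted p was 0.271 in edgeR's quasi-likelihood test and 1.37e-13 in DESeq2. ENST00000261479 had 5873, 5394 and 6399 counts in MOCK and 5313, 3806 and 3838 in CYGB, and the sum over PSMA6 overlapped between the groups. The transcript with the extra junction was thus given counts in the CYGB libraries and in no MOCK library. Reads over the junction itself were not examined. Of the 150-base windows of ENST00000553809, 20.3% were unique within the gene, against 0% of those of ENST00000261479. A second PSMA6 transcript, ENST00000553688, annotated as a target of nonsense-mediated decay, had 0, 0 and 1 counts in MOCK and 13, 12 and 11 in CYGB, a ratio of 35.5 with an exact 95% counting interval of 5.97 to 1439.

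In PSMC2 (chromosome 7), ENST00000435765 begins at an upstream exon of 223 bases, which ends at position 103345136 and is joined to an exon that begins at 103347524. ENST00000292644 begins 188 bases further into that exon, and both share a coding region of 1299 bases, so the junction lies in the untranslated part. The capitals mark the first bases of the second exon.
PSMC2 ENST00000435765: tttgcggagaattacGTAATCAGTCCAAAA
This transcript had 2608, 2880 and 2929 counts in MOCK and 101, 5 and 2 in CYGB, a log2 fold change of -6.28 (standard error 1.64) with an adjusted p of 0.94 in edgeR's quasi-likelihood test and 0.00159 in DESeq2. It held 38.6 to 42.0% of the gene's counts in MOCK and at most 1.91% in CYGB. ENST00000292644 had 3980, 3827 and 4496 counts in MOCK and 1374, 2530 and 3114 in CYGB. In CYGB 1 another transcript, ENST00000640277, took 3740 counts, against 50 to 104 in the other 5 libraries. The lower sum of PSMC2 in CYGB was thus made up of both longer transcripts, and only 7.88% of the windows of ENST00000435765 and 0% of those of ENST00000292644 were unique.

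In PSMF1 (chromosome 20), ENST00000335877 and ENST00000246015 share exon 6, which ends at position 1164476, and go on at 1165029 and 1166227, with coding regions of 813 and 789 bases. The capitals mark the start of the last exon of each.
PSMF1 ENST00000335877: gaccagcccacccggACCTAACCCAGACCA
PSMF1 ENST00000246015: gaccagcccacccggCCCGAGGCCTGACAG
ENST00000335877 had 1039, 3372 and 3418 counts in MOCK and 665, 348 and 240 in CYGB, a log2 fold change of -2.62 (standard error 0.61) with an adjusted p of 0.718 in edgeR's quasi-likelihood test and 0.0351 in DESeq2. All CYGB libraries were below all MOCK libraries, with MOCK 1 nearest to them. ENST00000246015 had 3608, 3267 and 3359 counts in MOCK and 4620, 3916 and 2612 in CYGB, and overlapped. The first of these junctions also occurs in 2 other transcripts of the table. Of the windows of ENST00000335877, 0% were unique within the gene, against 7.82% of those of ENST00000246015. No single window thus sets ENST00000335877 apart from the other transcripts of PSMF1.

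**Figure D5:**
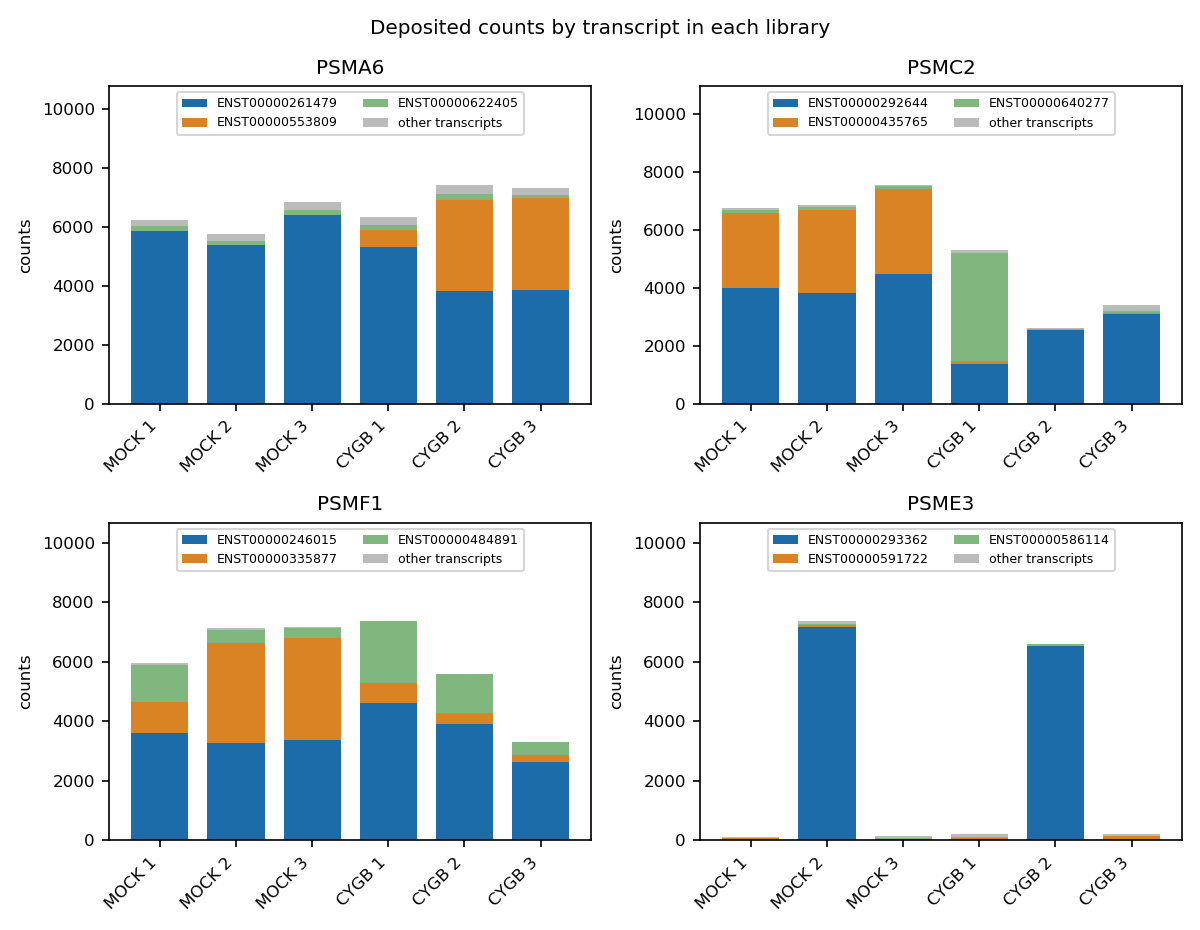
Deposited counts in each library, stacked by transcript, for PSMA6, PSMC2, PSMF1 and PSME3; the 3 most abundant transcripts of each gene have a colour and the rest are grey. ENST00000553809 of PSMA6 appears in the CYGB libraries, ENST00000435765 of PSMC2 and most of ENST00000335877 of PSMF1 appear in the MOCK libraries, and ENST00000293362 of PSME3 appears in MOCK 2 and CYGB 2.

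The remaining transcripts past the threshold of the methods belonged to PSMC5 and PSMD2. ENST00000581882 of PSMC5 had 1207, 1363 and 855 counts in MOCK and 1797, 2819 and 2998 in CYGB, with a log2 fold change of 1.15, a standard error of 0.28 and an adjusted p of 0.841 (edgeR's quasi-likelihood test). It held 9.02 to 14.5% of the counts of PSMC5 in MOCK and 15.6 to 28.2% in CYGB. The leading PSMC5 transcript, ENST00000310144, had 5594, 6394 and 6938 counts in MOCK and 7800, 6181 and 6031 in CYGB, so CYGB 1 was the highest library for this transcript, and CYGB 2 and CYGB 3 were the highest for the other. ENST00000417952 of PSMD2, a scaffold subunit of the base, had 0 counts in every MOCK library and 28, 35 and 36 in CYGB, at least 32.5-fold higher against the same floor, and at most 0.138% of the gene's counts.

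Promoter sequence from RefSeq (build GRCh38.p14, 250 bases before to 50 after each start) was matched for 41 of the 47 genes, in 50 windows. PSMA7, PSMB1, PSMB6, PSMB7, PSMD4 and PSMG3 had no entry. The windows were searched on both strands for TGAC followed after any 3 bases by GCA, the antioxidant response type bound by NFE2L1 and NFE2L2 with a small MAF partner. It occurred in 9 of the 50 windows (18.0%), against 3.18% of all 35116 windows. The genes were PSMA4, PSMB3, PSMB9, PSMC5, PSMD1, PSMD3, PSMD9, PSMD12 and PSME4. Stretches around the match (capitals) are shown for PSMC5, whose groups did not overlap, and for PSMA4 and PSMB3, 2 core genes whose groups did.
PSMC5 chr17:63827638-63827697, plus strand: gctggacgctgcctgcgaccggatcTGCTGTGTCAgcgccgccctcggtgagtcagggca
PSMA4 chr15:78540635-78540694, plus strand: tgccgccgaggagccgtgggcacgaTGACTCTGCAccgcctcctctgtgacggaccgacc
PSMB3 chr17:38752612-38752671, plus strand: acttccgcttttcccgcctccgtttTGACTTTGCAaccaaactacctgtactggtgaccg
GAAA followed after any 2 bases by GAAA, the interferon regulatory type, occurred in 7 of the 50 windows (14.0%), against 3.57% of all windows: those of PSMA4, PSMB4, PSMB8, PSMB10, PSME1, PSME2 and PSMG4. Stretches are shown for the inducible genes described above.
PSMB8 chr6:32844042-32844071, minus strand: cctccccttcgatctgtggcTTTCGCTTTC
PSMB10 chr16:67936851-67936896, minus strand: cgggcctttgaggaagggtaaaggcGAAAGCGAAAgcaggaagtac
PSME1 chr14:24136179-24136208, plus strand: gggtgcgagcgccctaccgcTTTCGCTTTC
PSME2 chr14:24146611-24146663, minus strand: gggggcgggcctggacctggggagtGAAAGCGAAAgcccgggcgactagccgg
A match is a description of the letters and not of binding.

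Lists of other genes of the pathway, written for this comparison, held 59 symbols. Of these, 57 were found in the table and 56 had enough counts to be tested. None reached an adjusted p under 0.05 or the threshold of the methods, and 2 had an unadjusted p under 0.05, where 4.54% of all genes did, so their number was not above that share. These were NFE2L1 and MAFG. NFE2L1, the factor that drives proteasome genes when proteasome activity falls, had 261, 277 and 266 CPM in MOCK and 299, 290 and 322 CPM in CYGB. Its log2 fold change was 0.18 (standard error 0.07). MAFG, a small MAF partner of such factors, had 48.7, 55.7 and 78.6 CPM in MOCK and 114, 88.7 and 80.2 CPM in CYGB (0.63, standard error 0.22). Both had an adjusted p of 0.963 in edgeR's quasi-likelihood test. Among these lists, groups did not overlap for NFE2L1, MAFG, UBE3C, SQSTM1, NLRC5 and CALR, all of them higher in CYGB. Of all genes tested, 5.72% were apart in that direction and 5.31% in the other.

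Of subunits and partners without a PSM symbol, 6 were positive and 7 negative among 13 tested, and none had an unadjusted p under 0.05. ADRM1, a ubiquitin receptor, was at 0.16 (standard error 0.09) on the log2 fold change scale. USP14, a deubiquitinase of the regulatory particle, had -0.17 (standard error 0.11), and POMP, which guides the beta rings, had -0.08 (standard error 0.10). The 3 with the most distant values were named after these were seen. ECPAS, an adaptor of the proteasome, had 91.8, 31.2 and 7.38 CPM in MOCK and 113, 85.6 and 86.2 CPM in CYGB, a log2 fold change of 1.13 (standard error 0.80), with most of the spread among the MOCK libraries. PAAF1, a chaperone of the ATPase ring, was at -0.34 (standard error 0.44) and SEM1, a small subunit of the regulatory particle, at -0.25 (standard error 0.20). Of 18 genes of interferon response and antigen processing, none had an unadjusted p under 0.05, and their median log2 fold change was 0.02. Of 15 tested genes for ubiquitin, shuttle factors and unfolding, 10 were positive and 5 negative. Of 10 transcriptional regulators, 6 were positive and 4 negative.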

How the data were processed

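RNA-seq of 3 MOCK and 3 CYGB libraries of HCT116 cells was analysed. The authors deposited raw counts per transcript in 1 table, without normalization. The submitters' processing notes name HISAT2, HISAT, DESeq2 and the build hg19, without a role for each; the counting tool is not given in the sources used here. Of the 151393 listed transcripts that are also in GENCODE 29, 99.585% sit at the position that release gives on GRCh38, whose coordinates are printed. Of 172678 transcripts, 21225 carry no gene (18.6 to 19.5% of counts per library) and were left out.

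Transcript counts were summed per gene. Features were kept by filterByExpr (minimum count 10), scaled by TMM and tested with edgeR 4.0.16 (glmQLFit, glmQLFTest; R 4.3.3), CYGB against MOCK, without a replicate block, with Benjamini-Hochberg adjustment over all 19987 genes or 66609 transcripts. Standard errors are the log2 fold change divided by the root of the F statistic. CPM per kilobase divides each transcript's CPM by its GENCODE 29 length. Intervals and floors cover counting error or spread between libraries only. The gene-level steps were tested on simulated counts whose spread between libraries was set lower than in these data. That test does not show how well changes are recovered at the spread seen here. Libraries differed by more than sampling noise and each counts as 1 replicate.

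The members and gene lists were chosen with earlier results of these data known; 1 gene of the related lists is not reported here and was left out of their counts after its values were seen. Named were PSMB5 to PSMB10; in each class the highest and lowest log2 fold change and the most abundant per kilobase; every member with an unadjusted p under 0.05 or groups that did not overlap; transcripts past the threshold of the methods (up to 8); and leading transcripts that differ between libraries (up to 8). PSMB1 and PSMD14 values by library, PSME2, PSME3 and DESeq2 transcripts were added after values were seen. So were the related genes named only because their groups did not overlap. Alternatives were DESeq2 1.42.0, its size factors, edgeR's exact test, other filters (none; at least 50 counts on average), transcripts without a gene kept, a replicate block, the most abundant transcript alone, CPM in place of CPM per kilobase, and leaving out each library. 27 members overlap another gene of the table, 22 of these on the opposite strand. The 23 PSM pseudogenes in the table, of 32 listed, hold at most 2.88% of their parent's counts. How many reads of a neighbour or copy were counted for a member was not tested, so those values are uncertain to an unknown degree.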

Additional observations from a re-analysis of the deposited data

How the results depend on the processing

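No proteasome gene reached an adjusted p under 0.05 by gene in any fit run with edgeR or DESeq2; at an unadjusted p under 0.05 there were 4 members in the reported fit and 2 to 5 over the alternatives. The threshold of the methods was passed by 1 gene, PSMA5, and by 0 to 1 when each library was left out. The gene that passed was PSMA5 without MOCK 2, but PSMC2 and not PSMA5 without CYGB 1. Per transcript the threshold was passed by 6, by 15 in DESeq2, by 3 with a filter of 50 counts on average, and by 3 to 7 when each library was left out, with 3 without MOCK 2 or CYGB 2. In DESeq2, 7 transcripts had an adjusted p under 0.05, against 0 in edgeR. The cause was not tested.

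Deviations of samples with the same number had correlations of 0.016, 0.0049 and 0.025. No label ties the numbers together, so the reported fit has no block. However, 6 of 6 libraries correlated best with their own number in the other group, a hint from the data and not from the design. Deviations within a group sum to 0 for each gene, so these 6 results depend on one another. PSME3 was high in both libraries numbered 2. What the numbers share was not tested. With a replicate block the threshold was passed by 0 genes, PSMA5 no longer included, and by 2 transcripts.

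Without both libraries numbered 2, an alternative chosen after seeing the data, the median log2 fold change of the activators and PSMF1 was -0.10. When each library was left out, medians ranged from -0.17 to -0.057 for these, -0.056 to 0.035 for the core, 0.0048 to 0.086 for the regulatory particle, -0.023 to 0.037 for the base chaperones, -0.01 to 0.10 for the assembly chaperones and -0.22 to 0.02 for the immunoproteasome, and the PSMB8 to PSMB5 difference from -0.76 to 0.29 and PSMB9 to PSMB6 from -0.08 to 0.13. Per kilobase, the PSMB10 to PSMB7 difference ran from -0.44 to -0.26. That of the immunoproteasome to the constitutive catalytic subunits ran from -0.27 to -0.16. For both of these ratios the groups overlapped by CPM per gene.

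Signs changed for 17 of the 27 named members, none of them with an unadjusted p under 0.05 in the reported fit. With the most abundant transcript alone the log2 fold change was -0.46 for PSMA6, 0.022 for PSMB1, 0.051 for PSMD10, 0.13 for PSMD4, 0.24 for PSME1, 0.12 for PSMF1 and -0.66 for PSMG2. PSMB1 was at 0.0025 with DESeq2's size factors, 0.0041 in DESeq2 and 0.00090 without a filter, and PSMG4 at 0.00076 with these size factors, 0.0024 in DESeq2 and 0.0033 with the replicate block. Without both libraries numbered 2, PSMB1 was at 0.051, PSMB4 at 0.10, PSMB10 at 0.072 and PSMG4 at 0.099. When each library was left out, values ran from -0.054 to 0.12 for PSMA7, -0.040 to 0.031 for PSMB1, -0.12 to 0.041 for PSMB4, -0.056 to 0.071 for PSMB6, -0.056 to 0.19 for PSMB7, -0.54 to 0.25 for PSMB8, -0.070 to 0.070 for PSMB9, -0.023 to 0.0043 for PSMD10, -0.044 to 0.18 for PSMD12, -0.10 to 0.086 for PSMD4, -0.15 to 0.30 for PSME4, -0.044 to 0.13 for PSMG2 and -0.098 to 0.055 for PSMG4. Without a change of sign, they ran from -0.32 to -0.035 for PSMB10, -0.63 to -0.057 for PSMF1, 0.048 to 0.20 for PSMA6, 0.050 to 0.13 for PSMC3, 0.059 to 0.20 for PSMG1, 0.0099 to 0.098 for PSMD9 and -0.080 to -0.0051 for PSMD11. PSMA5, PSMC2, PSMC4 and PSMC5 kept their direction in every fit run by gene. Depth limits PSMB8 and PSMB11.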

Other observations

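The leading transcript was the same in all 6 libraries for 33 of the 46 tested members and differed for 13. Its share of the gene's counts ranged over a median of 16.3 percentage points between libraries. PSMD1, a scaffold subunit of the regulatory particle, divided its counts between ENST00000308696 and ENST00000409643. The latter had 0, 0 and 11470 counts in MOCK and 9656, 10987 and 0 in CYGB, so the split crossed the groups, and the PSMD1 sum stayed between 277 and 322 CPM in all libraries. PSMD12 did so with ENST00000357146, which had 6271 counts in MOCK 1 and 2540 in CYGB 2 and 0 in the other 4. ENST00000356126 of PSMD12 held 24.2 to 97.0% of its gene's counts, ENST00000445930 of PSMC6 21.3 to 82.1%, ENST00000206451 of PSME1 36.8 to 89.5% and ENST00000317615 of PSMG2 43.1 to 91.1%. In PSMC4 the retained-intron transcript ENST00000593455 led in 5 libraries, and the coding transcript ENST00000157812, with 753, 1599 and 42 counts in MOCK and 2709, 1562 and 2193 in CYGB, led in CYGB 1.

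The split of PSME3 by library number was looked for across the table after it had been seen. Among genes with at least 1000 counts in both libraries numbered 2, 3 were under 30% of that level in each of the other 4 libraries. PSME3 itself meets this rule, with 7369 counts in MOCK 2 and 6609 in CYGB 2. Among transcripts without a gene, 30 showed the same pattern and 11 the opposite one. These have no position in the table, and their relation to PSME3 was not tested.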
